A study of Mus musculus with 10 samples.

Results

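The genes described here are 42 genes of DNA replication and deoxynucleotide synthesis, listed by symbol and read from the table of gene counts of splenic mouse B cells. They are 42 of 46316 genes in the table, and 42 of the 17718 genes with enough counts to be tested. They were chosen by their role and not by their values, although earlier results of these data were known. All 42 were found and passed the filter on low counts, and the lowest count of any of them in any library was 134.

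Poly(A) RNA from sorted B220+ reporter-positive cells of 10 spleens was sequenced as single-end reads of 50 nt, 1 library per mouse, all on a C57BL/6 background. Every group carries Cg1Cre/+, a Cre recombinase driven by the immunoglobulin Cγ1 locus and thus expected mainly in B cells that enter germinal centres. The pBIC group (3 females) has the genotype p53F/F Blimp1F/F IKK2castopF/stopF Cg1Cre/+, so that Cre removes p53 and Blimp1 and turns on a constitutively active IKK2, and it is labelled ABC-DLBCL, the activated form of diffuse large B cell lymphoma. The pBIC10 group (2 females and, as replicate 3, 1 male) has the same alleles and floxed IL-10 (IL-10F/F), and is labelled as the IL-10-deficient form of that lymphoma. The YC group (3 females and, as replicate 3, 1 male) is YFPstopF/+ Cg1Cre/+ and supplied YFP-positive germinal centre B cells, taken 10 days after the last of 2 injections of sheep red blood cells. Ages are not in the labels. Lymphoma spleens came from moribund mice. The labels repeat the lymphoma, GFP and moribund wording for YC, and the description of the series was followed for that group.

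Before a cell divides it copies its DNA once. The origin recognition complex with CDC6 and CDT1 loads the ring-shaped MCM helicase onto DNA in G1 phase, and at the start of S phase CDC45 and the GINS complex switch that helicase on. Primase and polymerases alpha, delta and epsilon then make the new strands with the sliding clamp PCNA and its loader RFC, while ribonucleotide reductase and its partner enzymes supply the deoxynucleotides. Many of these genes are known targets of E2F transcription factors, and germinal centre B cells are among the fastest dividing cells of the body.

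The promoters of the genes were examined for the sites that E2F factors are known to bind, because so many replication genes carry them. RefSeq windows (build GRCm38.p6, 300 bases, of which 250 lie before the annotated start and 50 after) were matched for 35 of the 42 genes. Gins1, Gins2, Gins4, Rfc2, Mcm4, Pole and Prim2 were not matched. The 170 bases before the start are shown, 5′ to 3′ on the strand of the gene, for 4 genes whose RNA is described below. These are Mcm5 at chr8:75109339-75109508 (+ strand), Mcm6 at chr1:128359706-128359875 (- strand), Pola1 at chrX:93632156-93632325 (- strand) and Cdc6 at chr11:98907981-98908150 (+ strand). Capitals mark every base that lies in a match to TTTCCCGC, TTTGGCGC, TTTGCCGC or TTTCGCGC, read on either strand.
Mcm5: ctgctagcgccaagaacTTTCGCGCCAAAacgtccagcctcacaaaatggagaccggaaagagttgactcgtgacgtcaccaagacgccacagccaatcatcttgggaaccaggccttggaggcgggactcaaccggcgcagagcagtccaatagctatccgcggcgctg
Mcm6: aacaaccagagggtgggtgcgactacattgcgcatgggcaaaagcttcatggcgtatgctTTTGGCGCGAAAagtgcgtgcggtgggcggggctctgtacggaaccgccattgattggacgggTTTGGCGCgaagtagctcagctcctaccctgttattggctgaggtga
Pola1: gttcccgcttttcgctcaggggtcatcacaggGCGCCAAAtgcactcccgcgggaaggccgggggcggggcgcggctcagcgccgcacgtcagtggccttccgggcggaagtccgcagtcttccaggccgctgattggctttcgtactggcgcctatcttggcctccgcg
Cdc6: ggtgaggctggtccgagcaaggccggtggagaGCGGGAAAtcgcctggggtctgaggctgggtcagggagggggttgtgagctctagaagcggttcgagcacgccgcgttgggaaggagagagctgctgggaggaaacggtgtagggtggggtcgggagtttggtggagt
In these 4 stretches Mcm5 holds 2 matches that overlap, and Mcm6 holds 3, of which 2 overlap. Pola1 and Cdc6 hold 1 each. In the whole window at least 1 such match was found in 14 of 35 replication genes (40.0%), against 2.6% of the 27025 genes with a window. The 14 genes were Cdc6, Cdt1, Orc1, Mcm3, Mcm5, Mcm6, Mcm7, Gins3, Pola1, Pold1, Pole2, Rfc3, Lig1 and Uhrf1. A CCAAT box, the letters CCAAT on either strand, was found in 23 of 35 (65.7%), against 41.1% of all genes. The CHR element, a motif known from genes of mitosis and searched as TTTGAA on either strand, was found in 5 of 35 (14.3%), against 20.2% of all genes. Mitosis genes had another makeup: of 20 with a window, 1 held an E2F match (5.0%), 19 held CCAAT (95.0%) and 15 held TTTGAA (75.0%). The window decides some of these counts. In the bases before the start alone, an E2F match was found in 9 of 35 replication genes (25.7%, against 2.2% of all genes). TTTGAA was then found in 7 of 20 mitosis genes (35.0%, against 18.3% of all genes), a check of that list added after its values were seen. A match is a description of the letters in the window and not a measured site.

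Total counts per library were 17100995 to 18578955 in pBIC10, 17797344 to 19134178 in pBIC and 12590117 to 14330172 in YC. A count of 3 in a library corresponds to 0.154 to 0.246 CPM (counts scaled to a common library size). Counts of the targeted genes cover the whole gene, and so do not show whether the floxed part is lost. Trp53 stood at 36.6 to 49.7 CPM in pBIC10, 18.3 to 53.3 in pBIC and 176 to 198 in YC, Prdm1 (Blimp1) at 0.351 to 1.59, 5.63 to 16.3 and 16.8 to 39.6, Ikbkb (IKK2) at 335 to 422, 223 to 335 and 126 to 166, and Il10 at 1.99 to 4.77, 6.84 to 19.4 and 4.23 to 9.98. B cell markers such as Pax5 and Cd79a were present in every library, and their sum over 6 genes was 1994 to 3586 CPM in pBIC10, 1634 to 3045 in pBIC and 6381 to 8023 in YC. The sum of 7 germinal centre markers was 38.2 to 57.3, 62.0 to 79.7 and 625 to 1150 CPM, with Gcsam at 0 in some lymphoma libraries of each genotype. Sums of 9 myeloid markers were 26.8 to 35.7, 126 to 161 and 127 to 194 CPM. Cd68 held most of the pBIC sum (mean 111 CPM, against 30.5 in YC), and the other 7 that were tested had negative log2 fold changes in pBIC against YC. Sums of 10 T cell markers were 145 to 253, 74.3 to 121 and 411 to 621 CPM. Between the lymphomas 7 of these 10, among them the Cd3 genes, Cd4 and Cd8a, were called lower in pBIC10, and Cd2 (mean 152 CPM, against 35.8 in pBIC), Lck and Zap70 higher. Sums of 8 erythroid markers, mostly globins, were 632 to 1629, 33.1 to 663 and 184 to 545 CPM. None of the markers stood at 0 in all 10 libraries, and the part of these differences in the results below was not tested.

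The libraries of a lymphoma group shared 1 main heavy chain segment: Ighv7-3 held 67.4% to 70.5% of Ighv counts in pBIC10, and Ighv8-11 held 51.6% to 59.1% in pBIC. The p-values therefore measure the spread between these libraries, and it was not tested whether the tumours of a group arose apart. The pBIC and YC libraries were taken by the authors from an earlier series and the pBIC10 libraries were not, so in both pBIC10 comparisons the series and the genotype cannot be told apart. A call means an adjusted p under 0.05 in the quasi-likelihood test of edgeR, fitted over all 17718 genes and all 10 libraries. Values are listed in the order of replicates 1, 2 and 3 (1 to 4 in YC) as CPM scaled by the trimmed mean of M-values (TMM), a log2 fold change is given ± its standard error (SE), and every adjusted p is from that test. In bulk RNA, fewer cells in S phase and less replication RNA per cell cannot be told apart.

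In pBIC against YC the replication genes stood mostly lower. Of 42, 15 were called lower and 4 higher, together 45.2%, against 54.1% of all genes tested (27.7% lower and 26.4% higher). The lowest was Pold1, the catalytic subunit of polymerase delta, at 3.68-fold less than in YC, followed by the licensing factor Cdt1 at 2.38-fold less. The 4 genes called higher were Orc2, Gins4, Pold2 and Rrm1. The median log2 fold change of the 42 genes was -0.30, beside 0.02 over all genes, and libraries of the groups did not overlap for 15 genes lower and 2 higher (40.5%, against 54.2% of all genes, 28.0% lower and 26.3% higher).

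In pBIC10 against YC, 10 of 42 genes were called lower and 5 higher, together 35.7%, against 51.7% of all genes (26.9% lower and 24.8% higher). Pold1 was again the lowest, at 2.57-fold less, and Rrm2, the small S-phase subunit of ribonucleotide reductase, and Cdc45 followed. Orc2, Rpa2, Mcm6, Gins4 and Prim2 were called higher. The median log2 fold change was -0.23, beside 0.01 over all genes, and groups did not overlap for 11 genes lower and 6 higher (40.5%, against 61.0% of all genes, 31.0% lower and 30.0% higher). The number called lower was 5 without pBIC10 replicate 1 or 2, and 6 without YC replicate 3. Both comparisons share the YC libraries, so their values are set side by side here without an overlap test: Mcm10, Prim1, Pold1, Pole2, Rfc2 and Rfc3 were called lower in each of them, and Orc2 and Gins4 higher.

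Between the lymphomas, pBIC10 against pBIC, 9 genes were called higher and 2 lower, together 26.2%, against 30.7% of all genes (15.6% higher and 15.1% lower). The 9 were the helicase subunits Mcm2, Mcm3 and Mcm6, the primase subunit Prim2, the polymerase subunits Pola1, Pold1 and Pole, the clamp loader subunit Rfc1 and the single-strand binding subunit Rpa2. The clamp loader subunit Rfc4 and the flap nuclease Fen1 were called lower. Every change was under 2-fold, with log2 fold changes of the 42 genes from -0.89 to 0.99 and a median of 0.12, beside -0.01 over all genes. Groups did not overlap for 13 genes higher and 3 lower (38.1%, against 41.8% of all genes, 22.1% higher and 19.7% lower). The number called higher depended on the libraries used: it was 3 without pBIC10 replicate 3, 5 without pBIC replicate 1 or 3, 12 without pBIC replicate 2, and 3 in females alone. Mcm6 was called under each of the 22 alternatives run, a stricter threshold of 0.01 included.

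**Figure D1:**
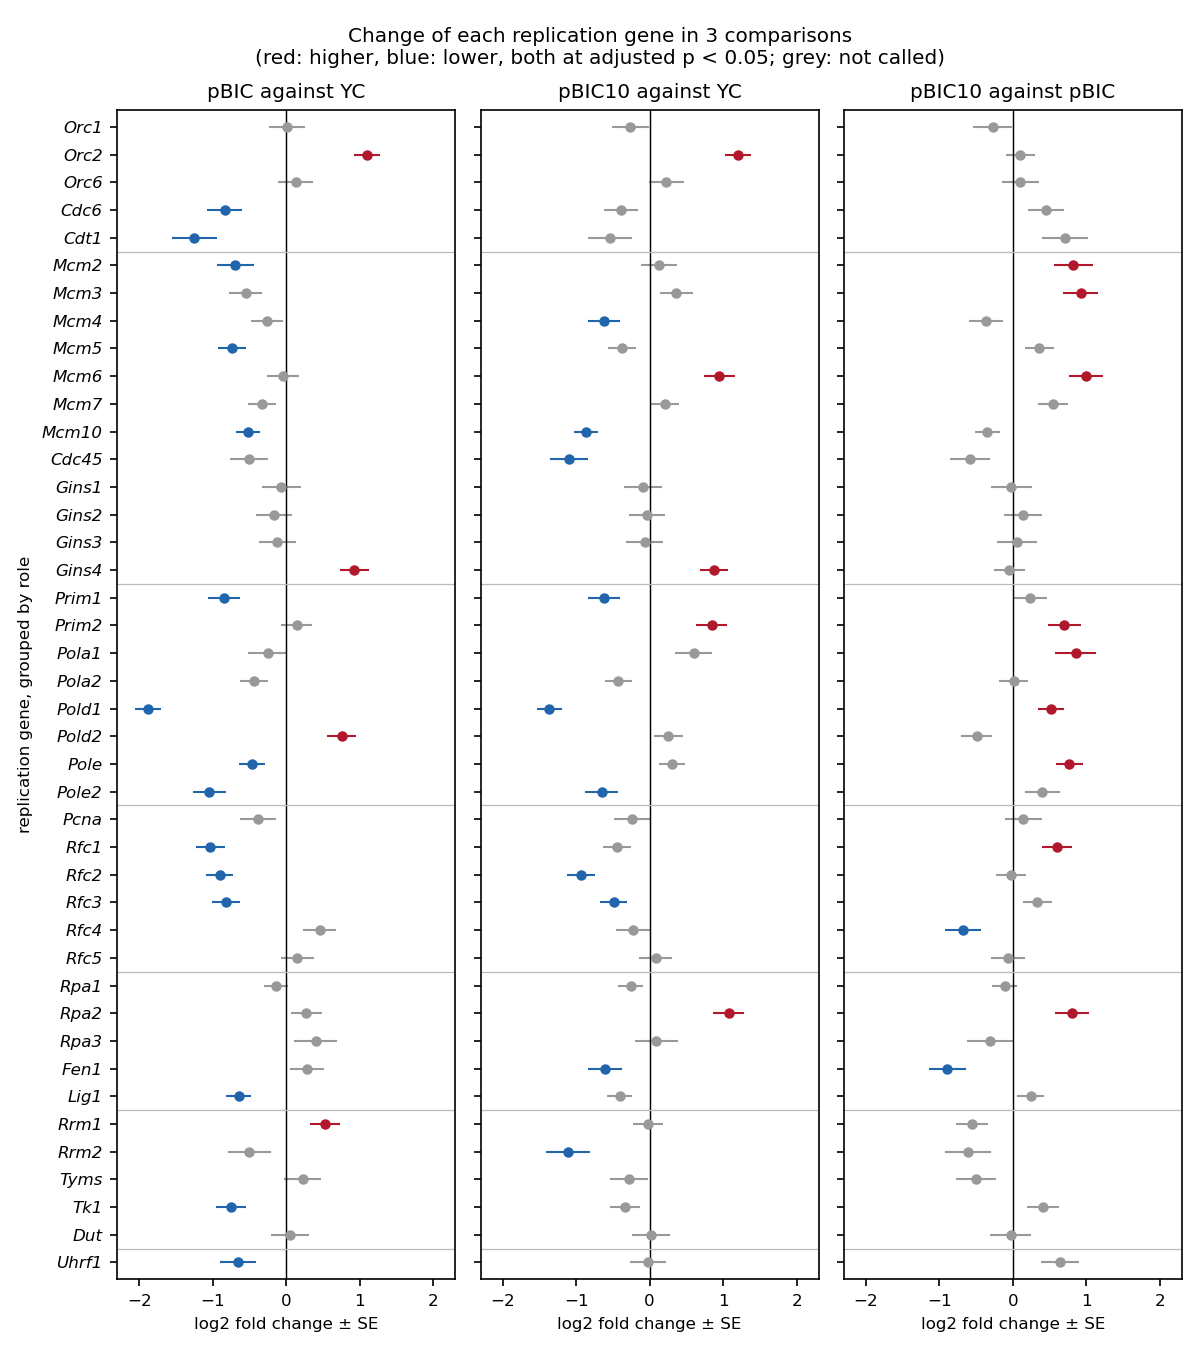
Log2 fold change (x axis, ± SE) of each of the 42 replication genes (y axis, grouped by role with grey lines) in the 3 comparisons, with 3 pBIC10, 3 pBIC and 4 YC libraries. Red points were called higher and blue points lower, 4 and 15 in pBIC against YC, 5 red and 10 blue in pBIC10 against YC, and 9 and 2 in pBIC10 against pBIC.

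Within each group 1 library stood above the others for most of these genes. The pBIC10 replicate 3 library was the highest of its group for 35 of 42 genes, beside 37.1% of all genes tested. The pBIC replicate 2 library was the highest of its group for 39, again beside 37.1%, and YC replicate 3 for 35, beside 27.1%. The summed CPM of the 42 genes was 5085, 4979 and 6530 in pBIC10, 3833, 5726 and 3925 in pBIC, and 5712, 4871, 6922 and 5618 in YC, so the 3 groups overlapped in the sum. pBIC10 replicate 3 and YC replicate 3 were the only libraries from males, and pBIC replicate 2 was from a female.

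**Figure D2:**
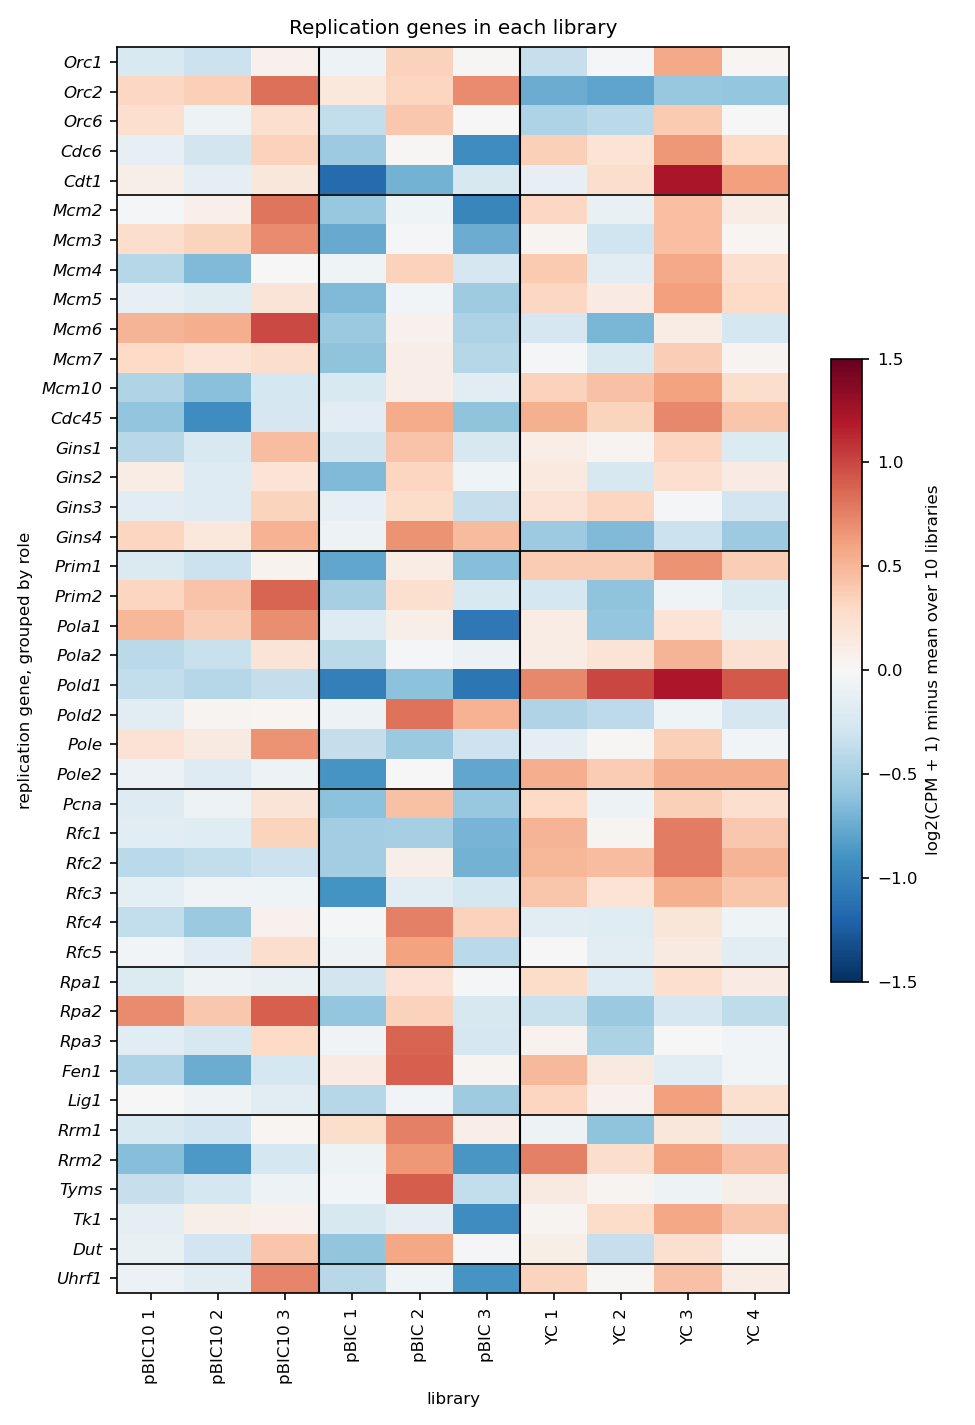
Heat map of the 42 replication genes (rows, by role) in the 10 libraries (columns), coloured by log2(CPM + 1) minus the mean of the gene over all 10 libraries. The columns of pBIC10 replicate 3, pBIC replicate 2 and YC replicate 3 are redder than their neighbours, which matches their sums of 6530, 5726 and 6922 CPM.

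Levels of different genes were compared per kilobase of exon, counted over all annotated exons of a gene in GENCODE M21. That length can exceed the length of the main transcript, so the order of genes is approximate. In YC the highest replication genes were Pcna at 107 ± 13.5 CPM per kb (SD, n = 4), Mcm5 at 104 ± 15.4, Mcm3 at 91.1 ± 20.0 (SD, n = 4) and Mcm6 at 78.0 ± 17.1. In pBIC they were Pcna at 82.3 ± 36.9 CPM per kb (SD, n = 3), Mcm6 at 75.6 ± 18.3 and Pold2 at 71.7 ± 21.3, which lie within each other's spread. In pBIC10 Mcm6 came first at 150 ± 29.1 CPM per kb (SD, n = 3) and Mcm3 next at 117 ± 20.5, whose ranges meet at 1 SD. Pcna stood at rank 3 there, at 90.9 ± 12.7 CPM per kb (SD, n = 3). The row of its processed copy Pcna-ps2 held 120 to 163 CPM in pBIC10 and may hold reads of Pcna. The place of Pcna in these orders is therefore uncertain. Orc1, the regulated large subunit of the origin recognition complex, was lowest in pBIC10 at 3.94 ± 0.599 CPM per kb and in YC at 4.73 ± 1.39, and Gins2 was lowest in pBIC at 4.54 ± 1.56.

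Among the 5 origin licensing genes, Orc2, a core subunit of the origin recognition complex, was higher in both lymphomas than in YC. Orc2 stood at 112, 116 and 160.4 CPM in pBIC10, 101, 113 and 148 in pBIC, and 53.7, 51.7, 60.4 and 60.0 in YC. Every lymphoma library was above every YC library (pBIC: log2 fold change 1.10 ± 0.18, adjusted p = 0.000243; pBIC10: log2 fold change 1.20 ± 0.18, adjusted p = 0.000126), and the lymphomas overlapped each other. The Orc2 call was kept in all alternatives in both comparisons. By GENCODE M21, 29.8% of Orc2 exon sequence lies over the oppositely oriented Nif3l1, and the strand setting of the counts is not given in the sources used here.

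The loading factors were lower in pBIC. Cdt1, which brings the MCM ring to the origin, stood at 131, 112 and 139 CPM in pBIC10, 54.8, 74.9 and 104 in pBIC, and 114, 148, 290.2 and 189 in YC. All 3 pBIC libraries were below the 4 YC libraries (log2 fold change -1.25 ± 0.30, adjusted p = 0.00405), whereas pBIC10 lay between and overlapped YC (-0.54, adjusted p = 0.144). Cdc6, the ATPase that works with Cdt1 and whose promoter is shown above, stood at 52.3, 46.7 and 72.4 CPM in pBIC10, 38.8, 57.5 and 29.3 in pBIC, and 73.0, 65.5, 90.2 and 70.4 in YC. Again the pBIC libraries were below all of YC (log2 fold change -0.84 ± 0.24, adjusted p = 0.00901), and pBIC10 overlapped both other groups (-0.39, adjusted p = 0.179 against YC). Between the lymphomas neither was called (0.71, adjusted p = 0.105 for Cdt1 and 0.45, adjusted p = 0.188 for Cdc6). Cdt1 was called higher in pBIC10 than in pBIC without pBIC replicate 3 or YC replicate 3 (adjusted p from 0.0461 to 0.0494), and lower in pBIC10 than in YC without YC replicate 1 (adjusted p = 0.0447). Cdc6 was called higher in pBIC10 than in pBIC without pBIC replicate 2 (adjusted p = 0.0419). Orc1 and Orc6, the smallest subunit of the complex, were not called. Their log2 fold changes in the 3 comparisons, listed here and below as pBIC over YC, pBIC10 over YC and pBIC10 over pBIC, were 0.01, -0.26 and -0.28 for Orc1 and 0.13, 0.23 and 0.10 for Orc6.

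The MCM ring did not move as 1 unit. Mcm6 stood at 614, 632 and 857 CPM in pBIC10, 294, 451 and 313 in pBIC, and 362, 269, 465 and 359.7 in YC. The 3 pBIC10 libraries were above all 7 others, while pBIC and YC overlapped: the level in pBIC10 was 1.99 times that in pBIC (log2 fold change 0.99 ± 0.23, adjusted p = 0.00560) and 1.93 times that in YC (log2 fold change 0.95 ± 0.21, adjusted p = 0.00227). In pBIC it was not called against YC (-0.05, adjusted p = 0.871). Mcm4, its neighbour in the assembled ring, stood at 149, 126 and 201 CPM in pBIC10, 191, 254 and 167 in pBIC, and 263, 179, 296 and 239 in YC. The pBIC10 libraries were low here, below YC on average though pBIC10 replicate 3 overlapped the lower end of YC (log2 fold change -0.62 ± 0.22, adjusted p = 0.0295). That call was lost without pBIC10 replicate 1 or 2 or YC replicate 1 or 3 (adjusted p from 0.0580 to 0.136). Mcm4 did not differ past the threshold between the lymphomas (-0.36, adjusted p = 0.259) or between pBIC and YC (-0.26, adjusted p = 0.327).

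Mcm2 and Mcm3, other subunits of the ring, were higher in pBIC10 than in pBIC. Mcm3 stood at 386, 407 and 528 CPM in pBIC10, 190.1, 316 and 193 in pBIC, and 333, 262, 443 and 329 in YC. Each pBIC10 library was above each pBIC library (log2 fold change 0.92 ± 0.24, adjusted p = 0.0111), YC overlapped both lymphomas, and the call was lost under no alternative but the threshold of 0.01. In pBIC against YC Mcm3 was not called (-0.55, adjusted p = 0.0525), but it was called lower without pBIC10 replicate 3, pBIC replicate 2 or YC replicate 2, with DESeq2 size factors in edgeR, with library totals alone, by DESeq2, by limma-voom, with no low-count filter, with a filter of 1 CPM in 3 libraries or with the antigen receptor genes removed (adjusted p from 0.0110 to 0.0465). Mcm2 stood at 267, 286 and 474 CPM in pBIC10, 183, 261 and 137 in pBIC, and 337, 252, 371 and 295 in YC. The 2 lymphomas did not overlap, with 267 CPM as the lowest pBIC10 value and 261 as the highest pBIC value (log2 fold change 0.82 ± 0.27, adjusted p = 0.0325). That call was lost without pBIC10 replicate 3 or pBIC replicate 1 or 3, in a fit of only the 2 groups compared, with a covariate for sex or in females alone (adjusted p from 0.0724 to 0.162). Mcm2 was also called lower in pBIC than in YC, with overlapping libraries (log2 fold change -0.70 ± 0.25, adjusted p = 0.0320), and that call was lost without pBIC replicate 1 or 3 or YC replicate 1 or 3 or with a covariate for sex (adjusted p from 0.0513 to 0.123).

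Mcm5 and Mcm7 complete the ring. Mcm5 stood at 301, 288 and 374 CPM in pBIC10, 207, 318 and 226 in pBIC, and 405, 356, 502 and 404 in YC. The pBIC libraries were below all YC libraries (log2 fold change -0.74 ± 0.19, adjusted p = 0.00522), and pBIC10 lay between, overlapping both (-0.38, adjusted p = 0.107 against YC and 0.36, adjusted p = 0.190 against pBIC). Against YC it was called lower in pBIC10 in a fit of only the 2 groups compared (adjusted p = 0.0414). Mcm7 had log2 fold changes of -0.33 in pBIC against YC, 0.20 in pBIC10 against YC and 0.54 between the lymphomas, where the libraries did not overlap and the adjusted p was 0.0613. It was called higher in pBIC10 than in pBIC without pBIC replicate 2, with DESeq2 size factors in edgeR, with library totals alone, by DESeq2, by limma-voom, with a filter of 1 CPM in 3 libraries or with the antigen receptor genes removed (adjusted p from 0.0125 to 0.0497). It was also called lower in pBIC than in YC without pBIC replicate 2 (adjusted p = 0.0296).

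Of the factors that join the ring to form the active helicase, Cdc45 and Mcm10 were lower in pBIC10 than in YC. Cdc45 stood at 32.4, 25.5 and 41.3 CPM in pBIC10, 44.0, 73.1 and 32.2 in pBIC, and 71.8, 62.8, 82.4 and 66.1 in YC. The pBIC10 libraries lay below all 4 YC libraries (log2 fold change -1.10 ± 0.26, adjusted p = 0.00333), and pBIC overlapped both groups (-0.51, adjusted p = 0.108 against YC). Without pBIC replicate 2, whose value was the highest of the 6 lymphoma libraries, Cdc45 was also called lower in pBIC than in YC (adjusted p = 0.00963). Between the lymphomas Cdc45 was not called (-0.59, adjusted p = 0.118), but it was called lower in pBIC10 without pBIC replicate 3 (adjusted p = 0.0259). Mcm10, which binds the helicase when origins fire, stood at 52.2, 46.1 and 59.7 CPM in pBIC10, 60.9, 76.6 and 63.5 in pBIC, and 91.3, 97.4, 109 and 86.1 in YC. The 3 groups did not overlap at all, with pBIC10 lowest and YC highest (pBIC10 against YC: log2 fold change -0.87 ± 0.16, adjusted p = 0.000616; pBIC against YC: log2 fold change -0.52 ± 0.16, adjusted p = 0.0142). The pBIC call was lost with no low-count filter or in females alone (adjusted p from 0.0516 to 0.0544), and the lymphomas differed by -0.35, adjusted p = 0.137.

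Gins4 was the exception in the GINS complex, whose subunits work as 1 particle. Gins4 stood at 52.3, 46.9 and 60.4 CPM in pBIC10, 39.6, 67.2 and 58.2 in pBIC, and 28.2, 26.0, 33.2 and 28.2 in YC. All lymphoma libraries were above all YC libraries (pBIC: log2 fold change 0.93 ± 0.19, adjusted p = 0.00138; pBIC10: log2 fold change 0.88 ± 0.19, adjusted p = 0.00198), with no alternative that lost either call. Gins1, Gins2 and Gins3 were not called, with log2 fold changes against YC of -0.07, -0.17 and -0.12 in pBIC and -0.09, -0.03 and -0.07 in pBIC10. Of Gins2 exon sequence, 67.3% lies over the oppositely oriented Gse1 in GENCODE M21, so its counts are uncertain. In all, 4 of the 12 helicase genes were called in pBIC against YC (1 higher, 3 lower), 5 in pBIC10 against YC (2 higher, 3 lower) and 3, all higher, in pBIC10 against pBIC. In the comparisons with YC these are 33.3% and 41.7% of the helicase genes, below the 54.1% and 51.7% of all genes called. Between the lymphomas it is 25%, all higher, beside 15.6% of all genes called higher and 30.7% called in either direction.

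Polymerase delta showed the largest fall of the 42 genes, in its catalytic subunit. Pold1 stood at 115, 110.4 and 116 CPM in pBIC10, 72.7, 97.0 and 69.7 in pBIC, and 245, 299, 347 and 282 in YC. The 3 groups did not overlap: YC was highest, pBIC10 lay between and pBIC was lowest (pBIC against YC: log2 fold change -1.88 ± 0.18, adjusted p = 4.28e-06; pBIC10 against YC: log2 fold change -1.36 ± 0.17, adjusted p = 3.57e-05). Both calls against YC were kept in all alternatives. The smaller difference between the lymphomas (log2 fold change 0.51 ± 0.18, adjusted p = 0.0425) was lost without pBIC10 replicate 1, 2 or 3, pBIC replicate 1 or 3 or YC replicate 4, with no low-count filter, in a fit of only the 2 groups compared, with a covariate for sex or in females alone (adjusted p from 0.0619 to 0.114).

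Pold2, the accessory subunit that holds Pold1 in the enzyme, went the other way in pBIC. Pold2 stood at 88.3, 101 and 100.1 CPM in pBIC10, 93.1, 173 and 142 in pBIC, and 71.6, 74.7, 94.2 and 82.4 in YC. It was called higher in pBIC than in YC (log2 fold change 0.75 ± 0.20, adjusted p = 0.00569), although pBIC replicate 1 overlapped YC. Between the lymphomas its log2 fold change was -0.50, adjusted p = 0.0910, and without pBIC replicate 1 the difference was called (adjusted p = 0.00827). Pold4, the smallest subunit, was not among the 42 genes and was lower in both lymphomas than in YC (-2.57 in pBIC, adjusted p = 0.000200, and -2.19 in pBIC10, adjusted p = 0.000530).

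Polymerase epsilon, which copies the leading strand, differed between the lymphomas in its catalytic subunit. Pole stood at 209, 196 and 285 CPM in pBIC10, 139.6, 121 and 144 in pBIC, and 162, 180.3, 229 and 174 in YC. Each pBIC10 library was above each pBIC library (log2 fold change 0.77 ± 0.19, adjusted p = 0.00794), and pBIC was below YC without overlap (log2 fold change -0.47 ± 0.18, adjusted p = 0.0398). The call against YC was lost without pBIC replicate 1, 2 or 3 or YC replicate 2, 3 or 4, with library totals alone, with no low-count filter, with a covariate for sex or in females alone (adjusted p from 0.05047 to 0.172). The second subunit, Pole2, stood at 22.5, 20.7 and 22.6 CPM in pBIC10, 12.5, 23.9 and 13.5 in pBIC, and 35.4, 31.5, 35.4 and 35.3 in YC. Between the lymphomas Pole2 was not called (0.40, adjusted p = 0.221), but it was called higher in pBIC10 without pBIC replicate 2 (adjusted p = 0.0125). Both lymphomas were below YC without overlap (pBIC: log2 fold change -1.05 ± 0.23, adjusted p = 0.00172; pBIC10: log2 fold change -0.65 ± 0.22, adjusted p = 0.0257), and the pBIC10 call was lost without pBIC10 replicate 1, 2 or 3 or YC replicate 3 or 4 or in females alone (adjusted p from 0.0509 to 0.101).

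Primase makes the RNA primers from which polymerase alpha starts each new strand, and its 2 subunits were called in opposite directions in pBIC10 against YC. Prim2, the large subunit, stood at 61.3, 66.2 and 90.4 CPM in pBIC10, 34.3, 58.0 and 41.8 in pBIC, and 40.5, 31.9, 47.2 and 42.3 in YC. The pBIC10 libraries were above all 7 others (against YC: log2 fold change 0.84 ± 0.21, adjusted p = 0.00488; against pBIC: log2 fold change 0.70 ± 0.23, adjusted p = 0.0334), and the call between lymphomas was lost without pBIC10 replicate 2 or 3 or pBIC replicate 1 or 3, in a fit of only the 2 groups compared, with a covariate for sex or in females alone (adjusted p from 0.0527 to 0.151). Prim1, the catalytic subunit, stood at 47.3, 44.0 and 57.7 CPM in pBIC10, 31.8, 59.7 and 35.2 in pBIC, and 72.1, 72.2, 88.9 and 71.9 in YC. Here both lymphomas were below YC without overlap (pBIC: log2 fold change -0.85 ± 0.22, adjusted p = 0.00515; pBIC10: log2 fold change -0.62 ± 0.22, adjusted p = 0.0285), and the pBIC10 call was lost without pBIC10 replicate 1 or 2 or YC replicate 3 or in females alone (adjusted p from 0.0708 to 0.108). The Prim1 values of the lymphomas overlapped (0.23, adjusted p = 0.471).

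Pola1, the catalytic subunit of polymerase alpha, stood at 93.9, 85.5 and 108 CPM in pBIC10, 57.6, 70.5 and 30.8 in pBIC, and 71.3, 43.8, 76.5 and 61.2 in YC. Its pBIC10 libraries were above all 7 others, and the difference was called against pBIC (log2 fold change 0.85 ± 0.28, adjusted p = 0.0327) but not against YC (0.60, adjusted p = 0.0657). The call between lymphomas was lost without pBIC10 replicate 1, 2 or 3 or pBIC replicate 3, in a fit of only the 2 groups compared, with a covariate for sex or in females alone (adjusted p from 0.0513 to 0.0977), and a call against YC was gained without pBIC replicate 2 or 3, with no low-count filter or in a fit of only the 2 groups compared (adjusted p from 0.0171 to 0.0392). Pola2, the second subunit of polymerase alpha, was not called in the 3 comparisons (-0.44, adjusted p = 0.0593, in pBIC against YC, and -0.43, adjusted p = 0.0668, in pBIC10 against YC). It was called lower in pBIC than in YC without pBIC10 replicate 3 or YC replicate 1, with DESeq2 size factors in edgeR, by DESeq2, with a filter of 1 CPM in 3 libraries or in a fit of only the 2 groups compared (adjusted p from 0.0313 to 0.0472), and lower in pBIC10 than in YC without pBIC10 replicate 3, with DESeq2 size factors in edgeR, by DESeq2, with a filter of 1 CPM in 3 libraries, in a fit of only the 2 groups compared, with a covariate for sex or in females alone (adjusted p from 0.0145 to 0.0498).

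**Figure D3:**
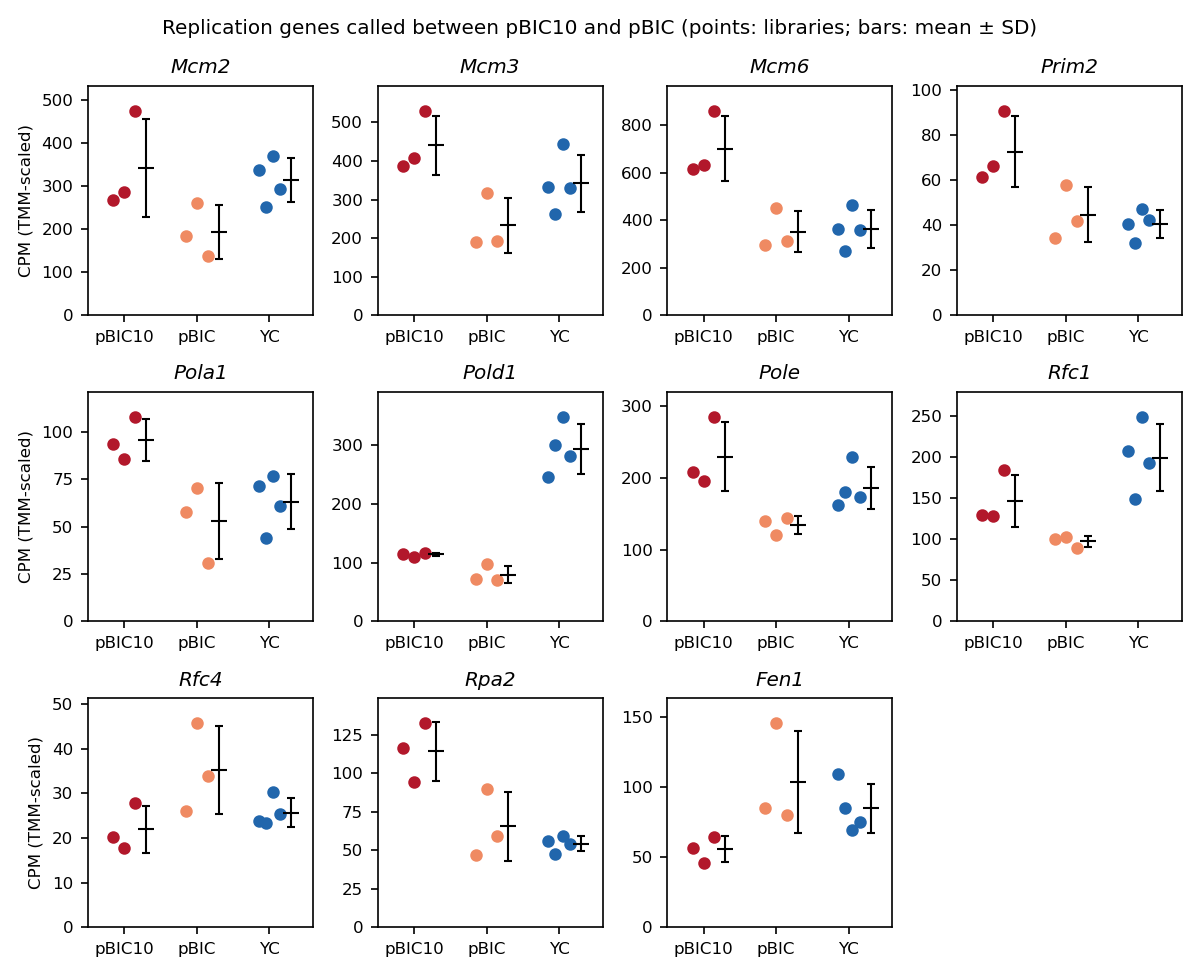
TMM-scaled CPM (y axis, from 0) of the 11 replication genes called between pBIC10 and pBIC, with 1 point per library and the mean ± SD of each group (n = 3, 3 and 4). Mcm6, Prim2, Pola1 and Rpa2 in pBIC10 lie above all 7 other libraries, whereas Pold1 lies between pBIC and YC.

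Pcna, the sliding clamp that tethers the polymerases, stood at 193, 209 and 252 CPM in pBIC10, 145, 299.9 and 148 in pBIC, and 272, 210.2, 284 and 264 in YC. The groups overlapped in each comparison (-0.38, -0.24 and 0.14), and Pcna was not called. Without pBIC replicate 2, which held the highest value of the 10 libraries, Pcna was called lower in pBIC than in YC (adjusted p = 0.0042) and higher in pBIC10 than in pBIC (adjusted p = 0.0466). The row of the processed copy Pcna-ps2 held 0.548 to 0.646 times the counts of Pcna in each library, so reads of the gene may be split between the rows.

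The clamp loader places Pcna on DNA and is made of 5 RFC subunits. Of these 5, 3 were called lower in pBIC than in YC, beside 27.7% of all genes. Rfc1, the large subunit, stood at 129, 128 and 184 CPM in pBIC10, 101, 103 and 89.4 in pBIC, and 208, 149.7, 249 and 193 in YC. The pBIC libraries were below all others (against YC: log2 fold change -1.03 ± 0.20, adjusted p = 0.000741; pBIC10 against pBIC: log2 fold change 0.59 ± 0.21, adjusted p = 0.0427). The call between lymphomas was lost without pBIC10 replicate 1 or 3, pBIC replicate 1, 2 or 3 or YC replicate 1 or 4, in a fit of only the 2 groups compared, with a covariate for sex or in females alone (adjusted p from 0.05037 to 0.162). In pBIC10 against YC Rfc1 was not called (-0.44, adjusted p = 0.0711), but it was called lower without pBIC10 replicate 3 or YC replicate 2, by DESeq2 or with a covariate for sex (adjusted p from 0.0217 to 0.0485).

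Rfc2 stood at 110.1, 112 and 116 CPM in pBIC10, 101, 155 and 88.9 in pBIC, and 206, 201, 248 and 207 in YC. Both lymphomas were below YC without overlap and by like amounts (pBIC: log2 fold change -0.91 ± 0.19, adjusted p = 0.00143; pBIC10: log2 fold change -0.93 ± 0.19, adjusted p = 0.00117), and no alternative lost either call. Rfc3 had log2 fold changes of -0.82, adjusted p = 0.00273 in pBIC and -0.49, adjusted p = 0.0422 in pBIC10 against YC, in both without overlap. The pBIC10 call of Rfc3 was lost without pBIC10 replicate 1, 2 or 3 or YC replicate 1, 3 or 4, with no low-count filter or in females alone (adjusted p from 0.0628 to 0.175).

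Rfc4, another small subunit of the clamp loader, was lower in pBIC10 than in pBIC. It stood at 20.3, 17.7 and 27.9 CPM in pBIC10, 25.9, 45.6 and 34.0 in pBIC, and 23.7, 23.3, 30.3 and 25.4 in YC. The pBIC10 values were mostly below those of pBIC, with pBIC10 replicate 3 above pBIC replicate 1 (log2 fold change -0.68 ± 0.24, adjusted p = 0.0492), and YC overlapped both. That call was lost without pBIC10 replicate 1 or 2, pBIC replicate 2 or 3 or YC replicate 1, 2, 3 or 4, with DESeq2 size factors in edgeR, with library totals alone or in a fit of only the 2 groups compared (adjusted p from 0.05018 to 0.187). Against YC, Rfc4 was not called in pBIC (0.45, adjusted p = 0.104), but it was called higher without pBIC replicate 1 or with a covariate for sex (adjusted p from 0.03165 to 0.0401). Rfc5 was not called, with log2 fold changes of 0.15, 0.08 and -0.07. By GENCODE M21, 15.1% of Rfc2, 12.7% of Rfc4 and 10.7% of Rfc5 exon sequence lies over genes on the opposite strand.

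Replication protein A coats single-stranded DNA and has 3 subunits, of which the middle one, Rpa2, was higher in pBIC10. Rpa2 stood at 116, 94.1 and 132 CPM in pBIC10, 46.9, 90.0 and 59.5 in pBIC, and 55.8, 47.8, 59.4 and 53.9 in YC. All 3 pBIC10 libraries exceeded the 7 others (against YC: log2 fold change 1.07 ± 0.21, adjusted p = 0.000861; against pBIC: log2 fold change 0.80 ± 0.23, adjusted p = 0.0163). The call between lymphomas was lost without pBIC10 replicate 3 or in females alone (adjusted p from 0.0521 to 0.0732). Rpa1, the large subunit, stood at 201, 218 and 214 CPM in pBIC10, 189.9, 268 and 228 in pBIC, and 279.7, 202, 276 and 252 in YC. It overlapped between all groups (-0.14, -0.26 and -0.12), and Rpa3 was likewise not called (0.40, 0.09 and -0.31).

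Fen1 trims the flaps of Okazaki fragments and Lig1 seals them. Fen1 stood at 56.3, 46.0 and 64.5 CPM in pBIC10, 84.8, 145 and 80.0 in pBIC, and 109, 85.1, 69.5 and 75.2 in YC. The pBIC10 libraries were below all 7 others (against pBIC: log2 fold change -0.89 ± 0.25, adjusted p = 0.0155; against YC: log2 fold change -0.61 ± 0.23, adjusted p = 0.0436). The call between lymphomas was lost without pBIC10 replicate 2 or pBIC replicate 2 (adjusted p from 0.0589 to 0.0736), and the call against YC was lost without pBIC10 replicate 1 or 2 or YC replicate 1, 2 or 4 or with a covariate for sex (adjusted p from 0.0505 to 0.165). Of Fen1 exon sequence, 78.8% lies over the oppositely oriented Gm10143, so these counts are uncertain. Lig1 was lower in pBIC than in YC without overlap (log2 fold change -0.65 ± 0.17, adjusted p = 0.00685), and in pBIC10 its log2 fold change against YC was -0.41, adjusted p = 0.0636, again without overlap. It was called in pBIC10 against YC without pBIC replicate 2 or YC replicate 2, with DESeq2 size factors in edgeR, with upper-quartile scaling, by DESeq2, with a filter of 1 CPM in 3 libraries, in a fit of only the 2 groups compared or with the antigen receptor genes removed (adjusted p from 0.0240 to 0.0494).

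Ribonucleotide reductase turns ribonucleotides into deoxynucleotides, and its 2 S-phase subunits differed. Rrm2 stood at 59.1, 50.3 and 76.5 CPM in pBIC10, 87.5, 146 and 50.1 in pBIC, and 157, 111, 141 and 126 in YC. In pBIC10 all 3 libraries were below all YC libraries (log2 fold change -1.11 ± 0.30, adjusted p = 0.00796), and pBIC spread from the lowest lymphoma value to a level within YC (-0.50, adjusted p = 0.167). Without pBIC replicate 2, Rrm2 was called lower in pBIC than in YC too (adjusted p = 0.012), and without pBIC replicate 3 lower in pBIC10 than in pBIC (adjusted p = 0.0151). Rrm1, the large subunit, stood at 227, 217 and 272 CPM in pBIC10, 318, 448 and 285 in pBIC, and 252, 175, 300.0 and 243 in YC. It was called higher in pBIC than in YC, with 1 pBIC library inside the YC range (log2 fold change 0.53 ± 0.20, adjusted p = 0.0409), and in pBIC10 it was not called against YC (-0.02, adjusted p = 0.937). The call of Rrm1 was lost without pBIC10 replicate 1 or 2, pBIC replicate 2 or YC replicate 1, 2 or 4, with DESeq2 size factors in edgeR, by DESeq2 or in a fit of only the 2 groups compared (adjusted p from 0.05005 to 0.137). The lymphomas did not overlap for Rrm1 (-0.55, adjusted p = 0.0718), which was called lower in pBIC10 than in pBIC without pBIC replicate 3, with no low-count filter or with a covariate for sex (adjusted p from 0.0331 to 0.0449).

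The alternative small subunit Rrm2b, a known p53 target and not among the 42 genes, had the opposite pattern to Rrm2 in pBIC10. Rrm2b stood at 71.9, 79.0 and 64.8 CPM in pBIC10, 17.3, 11.6 and 15.9 in pBIC, and 47.1, 21.0, 18.6 and 24.0 in YC. In pBIC10 it was above all 7 other libraries (against pBIC: log2 fold change 2.27 ± 0.32, adjusted p = 0.000194; against YC: log2 fold change 1.38 ± 0.28, adjusted p = 0.00131), and pBIC was called lower than YC (-0.89, adjusted p = 0.0211), a call that was lost without pBIC replicate 2 (adjusted p = 0.109). Rrm2b was named by its adjusted p among 30 other genes of nucleotide synthesis.

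Of the remaining deoxynucleotide genes, Tk1, thymidine kinase of the salvage route, stood at 51.1, 60.3 and 59.1 CPM in pBIC10, 47.8, 51.0 and 29.1 in pBIC, and 58.0, 68.5, 85.2 and 75.1 in YC. Its pBIC libraries were below all of YC (log2 fold change -0.75 ± 0.21, adjusted p = 0.00834), and pBIC10 overlapped YC (-0.34, adjusted p = 0.188). Tyms, thymidylate synthase, had log2 fold changes of 0.22, -0.28 and -0.51, and Dut, which removes dUTP, of 0.06, 0.02 and -0.03. Neither was called, but Tyms was called lower in pBIC10 than in pBIC without pBIC replicate 3 (adjusted p = 0.0373). The row Tyms-ps held 0.18 to 0.297 times the counts of Tyms. Uhrf1, which reads hemimethylated DNA behind the fork and brings in Dnmt1, stood at 173, 164 and 308 CPM in pBIC10, 138, 177 and 99.5 in pBIC, and 233, 187, 252 and 199 in YC. It was lower in pBIC than in YC without overlap (log2 fold change -0.66 ± 0.25, adjusted p = 0.0378), a call that was lost without pBIC replicate 1 or 3 or YC replicate 1 or 3 or with a covariate for sex (adjusted p from 0.0576 to 0.143), and pBIC10 ran from below the lowest YC library to above the highest (-0.02, adjusted p = 0.957). Between the lymphomas Uhrf1 was not called (0.64, adjusted p = 0.0798), but it was called higher in pBIC10 with no low-count filter (adjusted p = 0.0358).

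The wider E2F family was compared because E2F matches were frequent in these promoters. In pBIC against YC, 4 of 13 E2F and pocket protein genes were called lower and 3 higher (53.8%), a share like the 54.1% of all genes. In pBIC10 against YC 1 was called lower and 3 higher (30.8%, beside 51.7% of all genes), and between the lymphomas 6 were called higher in pBIC10 and 1 lower (53.8%, beside 30.7%). E2f1, an activator of S-phase genes, stood at 56.5, 54.4 and 70.0 CPM in pBIC10, 23.1, 30.2 and 28.9 in pBIC, and 69.8, 55.9, 86.7 and 65.7 in YC. E2f2, another activator, stood at 241, 283 and 207 CPM in pBIC10, 92.3, 75.2 and 51.9 in pBIC, and 218, 198, 188 and 152 in YC. In both genes every pBIC library was below every pBIC10 and YC library (pBIC10 against pBIC: 1.14, adjusted p = 0.000875 for E2f1 and 1.74, adjusted p = 9.64e-05 for E2f2), and pBIC10 overlapped YC.

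The repressors that E2F activators induce were likewise lowest in pBIC. E2f7 stood at 19.3, 17.3 and 20.4 CPM in pBIC10, 5.95, 4.63 and 4.77 in pBIC, and 26.7, 17.7, 22.8 and 23.6 in YC. E2f8 stood at 76.1, 76.9 and 99.0 CPM in pBIC10, 39.4, 39.5 and 31.2 in pBIC, and 83.9, 66.6, 92.0 and 83.8 in YC. Each pBIC library was below all others in both genes (pBIC10 against pBIC: 1.89, adjusted p = 5.80e-05 for E2f7 and 1.20, adjusted p = 0.000363 for E2f8), while pBIC10 overlapped YC. Against YC, the pBIC log2 fold changes were -1.34 for E2f1, -1.37 for E2f2, -2.15 for E2f7 and -1.15 for E2f8, all called. None of these 8 calls was lost under an alternative, the threshold of 0.01 included.

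Tfdp1, the dimer partner of the E2F factors, was higher in both lymphomas than in YC (1.02, adjusted p = 0.000477 in pBIC and 1.23, adjusted p = 0.000119 in pBIC10). Tfdp2, a second partner, was called higher in pBIC10 than in pBIC (1.70, adjusted p = 0.00215) and than in YC (2.32, adjusted p = 6.44e-05). Rb1, the retinoblastoma repressor of E2F, was higher in pBIC10 than in pBIC (1.59, adjusted p = 0.00146) and than in YC (1.52, adjusted p = 0.000470). E2f6, a repressor of another kind, went the other way, at 13.1, 14.5 and 16.1 CPM in pBIC10, 23.8, 25.2 and 27.1 in pBIC, and 12.2, 16.0, 16.3 and 16.6 in YC, so that pBIC was above both other groups without overlap (pBIC10 against pBIC: -0.80, adjusted p = 0.00950). Of the 7 genes called higher in pBIC10 than in pBIC that had a promoter window, 4 held an E2F match (57.1%), beside 14 of all 35 replication genes with a window (40.0%). These were Mcm3, Mcm6, Pola1 and Pold1. In the bases before the start alone there were 2 of 7, Mcm6 and Pola1, because the matches of Mcm3 and Pold1 lie after the start.

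**Figure D4:**
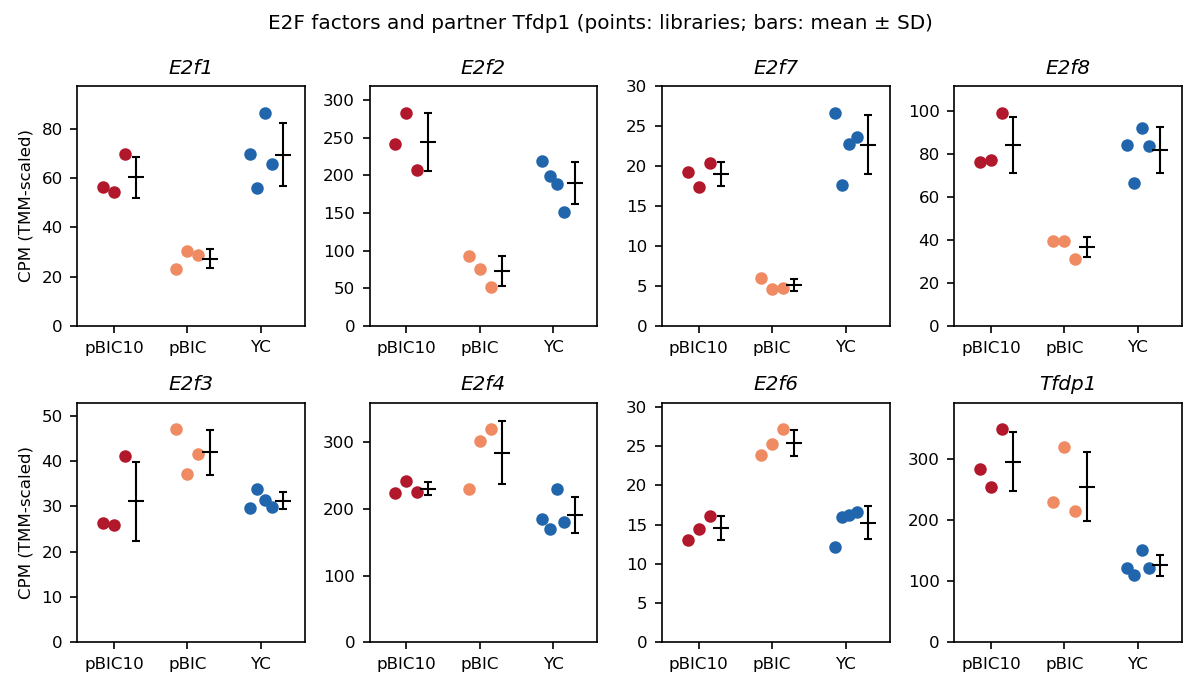
TMM-scaled CPM (y axis, from 0) of 7 E2F genes and Tfdp1, with 1 point per library and the mean ± SD of each group (n = 3, 3 and 4). For E2f1, E2f2, E2f7 and E2f8 the 3 pBIC libraries lie below all others, and for E2f6 above them.

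Among other origin and firing factors the largest change was that of Mtbp in pBIC10. Of 14 tested, 2 were called higher and 2 lower in pBIC against YC, 3 higher and 1 lower in pBIC10 against YC, and 2 and 1 in pBIC10 against pBIC. That is 28.6%, 28.6% and 21.4% of the list, beside 54.1%, 51.7% and 30.7% of all genes. The median log2 fold changes of the 14 were 0.14, 0.26 and 0.15. Mtbp, a partner of Treslin in origin firing, stood at 159, 148 and 202 CPM in pBIC10, 33.2, 41.9 and 29.1 in pBIC, and 29.0, 30.7, 49.2 and 36.6 in YC. The pBIC10 libraries were far above all 7 others, 4.89 times pBIC (log2 fold change 2.29 ± 0.23, adjusted p = 1.53e-05) and 4.67 times YC (log2 fold change 2.22 ± 0.21, adjusted p = 4.29e-06). The firing kinase Cdc7 was also higher in pBIC10 than in pBIC (1.33, adjusted p = 0.00113), and its activating subunit Dbf4 was lower (-0.73, adjusted p = 0.0295), a call that was lost without pBIC10 replicate 1 or 2 or pBIC replicate 2 or 3 or in a fit of only the 2 groups compared (adjusted p from 0.0636 to 0.133). Recql4, a helicase of origin firing, was lower than in YC in pBIC (-1.03, adjusted p = 0.00170) and pBIC10 (-0.87, adjusted p = 0.00508).

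Among 17 other fork factors tested, 6 were called lower and 4 higher in each comparison with YC, and 3 were called higher in pBIC10 than in pBIC. The share called was 58.8% in each comparison with YC, near the 54.1% and 51.7% of all genes. Between the lymphomas 17.6% were called, all of them higher. Of all genes, 15.6% were called higher there and 30.7% in either direction. Those 3 were Dscc1, a subunit of the alternative clamp loader (2.41, adjusted p = 0.000465), Clspn, the checkpoint mediator claspin (1.24, adjusted p = 0.000307), and Wdhd1, which links helicase to polymerase alpha (1.06, adjusted p = 0.00410). Dscc1 was low in pBIC and YC, and stood at 32.6, 33.4 and 23.7 CPM in pBIC10, 3.91, 9.16 and 3.75 in pBIC, and 6.90, 5.41, 12.0 and 8.06 in YC. Rnaseh2a and Rnaseh2b, subunits of the enzyme that removes ribonucleotides from DNA, were higher than in YC in pBIC (0.81, adjusted p = 0.00365 and 0.91, adjusted p = 0.00172) and in pBIC10 (0.94, adjusted p = 0.00138 and 0.75, adjusted p = 0.00595). Top1, which relieves the twist ahead of the fork, was lower in pBIC (-1.26, adjusted p = 0.000481) and in pBIC10 (-1.58, adjusted p = 0.000102).

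Of 10 genes of chromatin assembly and maintenance at the fork, 5 were called lower in pBIC than in YC, and 3 lower and 1 higher in pBIC10. In pBIC the share called was 50%, all of it lower, beside 27.7% of all genes called lower and 54.1% called in either direction. In pBIC10 the share called was 40%, beside 51.7% of all genes (26.9% lower and 24.8% higher). Dnmt1, the maintenance DNA methyltransferase that Uhrf1 recruits, was lower in pBIC (-1.25, adjusted p = 0.000108) and in pBIC10 (-0.73, adjusted p = 0.00408), and the lymphomas differed by 0.52, adjusted p = 0.0518. It was called higher in pBIC10 than in pBIC without pBIC replicate 1 or 2 or YC replicate 3, with DESeq2 size factors in edgeR, with library totals alone, by DESeq2, by limma-voom, with a filter of 1 CPM in 3 libraries or with the antigen receptor genes removed (adjusted p from 0.0351 to 0.0494). Chaf1a, of the histone chaperone CAF-1, was lower in pBIC (-1.03, adjusted p = 0.000375). Dtl, the adaptor that marks Cdt1 for destruction in S phase, was higher in pBIC10 than in YC (1.17, adjusted p = 0.000575) and than in pBIC (1.01, adjusted p = 0.00531).

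Mitosis genes, which a dividing cell uses after replication is complete, had another pattern. Of 24, 4 were called lower and 1 higher in pBIC against YC, whereas 19 were called lower in pBIC10 against YC and 14 lower in pBIC10 against pBIC. The share called in pBIC was 20.8%, below the 54.1% of all genes. In pBIC10 against YC 79.2% was called lower, beside 26.9% of all genes, and between the lymphomas 58.3%, beside 15.1%. The median log2 fold changes were 0.03, -0.77 and -0.60. The number called lower in pBIC10 against YC was 12 without pBIC10 replicate 1 or YC replicate 3 and 11 without pBIC10 replicate 2. Against pBIC it was 7 without pBIC10 replicate 2, and 9 without pBIC replicate 2 or in a fit of only the 2 groups compared.

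Plk1, the polo kinase of mitotic entry, stood at 16.8, 13.6 and 26.1 CPM in pBIC10, 91.3, 91.5 and 61.6 in pBIC, and 102, 81.4, 89.1 and 95.9 in YC. The pBIC10 libraries were below all 7 others, at 4.31-fold less than pBIC (log2 fold change -2.11 ± 0.25, adjusted p = 4.35e-05) and 4.87-fold less than YC (log2 fold change -2.28 ± 0.24, adjusted p = 8.64e-06). Aurka, the spindle pole kinase, was lower in pBIC10 than in pBIC (-1.87, adjusted p = 4.56e-05) and than in YC (-2.08, adjusted p = 7.45e-06). Ube2c, the ubiquitin carrier of the anaphase-promoting complex, was likewise lower (-1.79, adjusted p = 0.000433 and -1.35, adjusted p = 0.000922). Mki67, the proliferation marker Ki-67, was lower than in YC in pBIC (-1.18, adjusted p = 0.00516) and in pBIC10 (-1.13, adjusted p = 0.00687), and the lymphomas did not differ past the threshold (0.05, adjusted p = 0.923). The summed CPM of the 24 genes was 1711 to 2082 in pBIC10, 1837 to 2851 in pBIC and 2622 to 4049 in YC, so pBIC10 was below YC without overlap while the lymphomas overlapped.

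Other genes of nucleotide synthesis stood mostly higher in the lymphomas than in YC. Of 30, 16 were called higher and 5 lower in pBIC against YC, 17 higher and 2 lower in pBIC10 against YC, and 9 and 2 in pBIC10 against pBIC. Of all genes, 26.4%, 24.8% and 15.6% were called higher and 27.7%, 26.9% and 15.1% lower. The medians of the 30 were 0.75, 0.80 and 0.12. Gart and Ppat, enzymes of purine synthesis, were higher in pBIC (1.34, adjusted p = 7.53e-06 and 1.52, adjusted p = 4.48e-05) and in pBIC10 (1.01, adjusted p = 5.27e-05 and 1.46, adjusted p = 5.82e-05) than in YC. Ctps, which makes CTP and was found under its older symbol, was higher in pBIC (0.98, adjusted p = 0.000397) and in pBIC10 (1.66, adjusted p = 7.54e-06). Dctd, which makes dUMP from dCMP, stood at 45.7, 39.5 and 55.8 CPM in pBIC10, 46.6, 57.4 and 45.8 in pBIC, and 5.93, 13.6, 10.9 and 7.91 in YC, with every lymphoma library above every YC library.

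A few of these genes differed between the lymphomas. Dtymk, thymidylate kinase, was higher in pBIC10 than in pBIC (0.66, adjusted p = 0.0140), a call that was lost in females alone (adjusted p = 0.0650). Impdh1, of guanine nucleotide synthesis, was lowest in pBIC (-2.03, adjusted p = 3.48e-05 against YC) and higher in pBIC10 than in pBIC (1.18, adjusted p = 0.00406). Mthfd2, of mitochondrial folate metabolism, was lower in pBIC10 than in pBIC (-1.58, adjusted p = 0.00252). The summed CPM of the 30 genes was 4342 to 5004 in pBIC10, 3777 to 5657 in pBIC and 2741 to 3327 in YC, so both lymphomas were above YC without overlap.

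**Figure D5:**
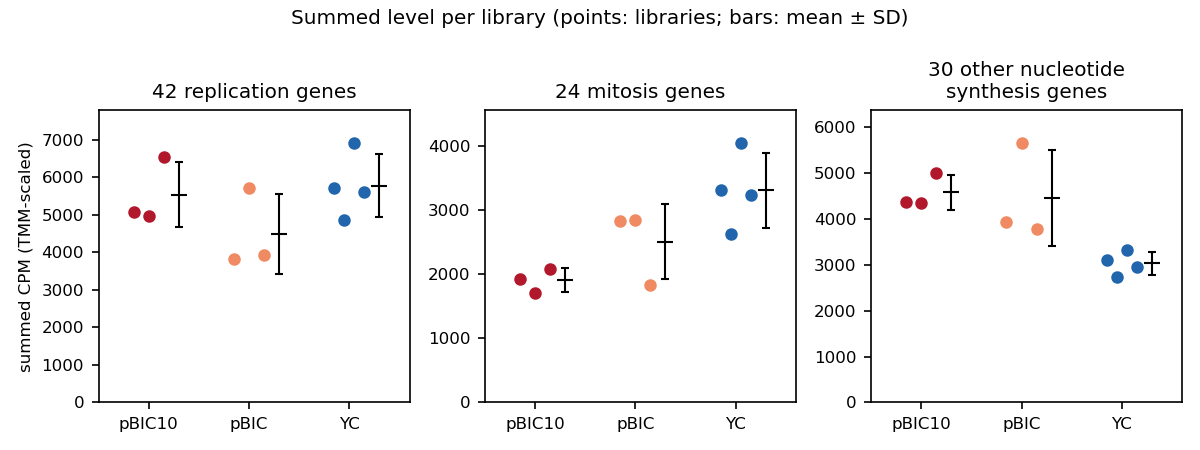
Summed TMM-scaled CPM per library (y axis, from 0) of the 42 replication genes, 24 mitosis genes and 30 other nucleotide synthesis genes, with 1 point per library and the mean ± SD of each group (n = 3, 3 and 4). The groups overlap for the replication genes, pBIC10 lies below YC for mitosis, and both lymphomas lie above YC for nucleotide synthesis.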

How the data were processed

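Poly(A) RNA of 10 sorted B cell samples was measured. The deposited values are raw counts of reads per gene, which the authors made with FastQC and featureCounts on GRCm39, per the submitters' processing notes. For aligner, annotation release, strand setting and versions, nothing is given in the sources used here. Values were whole, and 0 columns stayed unmatched to a sample.

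The filter filterByExpr in edgeR 4.0.16 (R 4.3.3, limma 3.58.1) kept 17718 of 46316 genes. TMM-scaled counts were fitted with 1 coefficient per group over all 10 libraries (quasi-likelihood, robust, 7 residual degrees of freedom, biological coefficient of variation 0.289). P-values are two-sided with Benjamini-Hochberg adjustment over all genes of a comparison. The SE is approximate: the log2 fold change over the square root of its F. The fit was also run on simulated counts, drawn independently for each library and with only a small part of the genes changed. That setting differs from these data, so no conclusion about the calls is drawn from it. Exon lengths, overlaps and promoters were matched by symbol to GENCODE M21 and RefSeq on GRCm38, and no position was converted.

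Replicate numbers follow accession order. The members, lists and alternatives were chosen with earlier results of these data known. Values in every library are printed for members called between the lymphomas, for the 5 largest changes in each direction against YC, for at least 1 member of each role, and for other members of interest. From related lists, up to 3 genes per direction and comparison with the smallest adjusted p qualified, and a part of these is printed. Alternatives were DESeq2 size factors, upper quartile or library totals for scaling, the tools DESeq2 1.42.0 and limma-voom, none or 1 CPM in 3 libraries as the filter, only the 2 groups compared, a covariate for sex, females only, antigen receptor genes removed, an adjusted p under 0.01, the promoter bases before the start alone, and leaving out each library in turn. Of the listed B cell markers, 1 is not reported here. Figures were drawn with matplotlib 3.10.9.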

Additional observations from a re-analysis of the deposited data

Results flagged for a closer look

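In the YC group 1 library stood apart for 3 replication genes by the gap to its nearest neighbour relative to the range of the 4 libraries. Prim1 was high in YC replicate 3 at 88.9 CPM, and Rfc2 was high in the same library at 248 CPM. Pole2 was low in YC replicate 2 at 31.5 CPM. Chance gives such a gap in about 1 in 20 groups, and 42 genes were examined.

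For 11 replication genes the change against YC differed between pBIC10 and pBIC by edgeR's quasi-likelihood test of the difference itself, which is the comparison of the lymphomas given above. The pBIC10 change minus the pBIC change, on the log2 scale, was 0.82 for Mcm2, 0.92 for Mcm3, 0.99 for Mcm6, 0.70 for Prim2, 0.85 for Pola1, 0.51 for Pold1, 0.77 for Pole, 0.59 for Rfc1 and 0.80 for Rpa2. It was -0.68 for Rfc4 and -0.89 for Fen1.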

How the results depend on the processing

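No called log2 fold change reversed under an alternative. At an adjusted p under 0.01, 1656 genes of all tested were called higher and 1489 lower in pBIC10 against pBIC, with 2 replication genes higher and 0 lower. At that threshold 5 replication genes were lower in pBIC10 against YC, and 11 and 7 mitosis genes were lower in pBIC10 against YC and against pBIC. Replication genes called higher in pBIC10 than in pBIC numbered 4 in a fit of 2 groups, 4 with a covariate for sex and 3 in females alone. Those called lower numbered 1 with DESeq2 size factors, library totals or a fit of 2 groups. Mitosis genes lower in pBIC10 than in pBIC numbered 9 in a fit of 2 groups. Promoters with an E2F match numbered 9 of 35 in the bases before the start alone (25.7%, against 2.2% of all genes).

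Leaving out each library in turn gave 3 to 5 replication genes higher and 12 to 19 lower in pBIC against YC, 5 to 6 and 5 to 11 in pBIC10 against YC, and 3 to 12 and 0 to 5 in pBIC10 against pBIC. Mitosis genes lower ranged from 11 to 19 against YC and 7 to 14 against pBIC. Other nucleotide synthesis genes higher than YC ranged from 15 to 18 in pBIC and 16 to 20 in pBIC10, and E2F and pocket protein genes higher in pBIC10 than in pBIC stayed at 6. The cause of these shifts was not tested. No paired analysis was possible, because each library came from its own mouse and the labels pair no mice across the groups.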

Other observations

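Partners of 1 complex or pathway can be set against each other within a library, per kilobase of exon, which leaves out library scaling. The height of such a ratio depends on the exon lengths used, which are the same for every library. The pairs below were chosen after their values were seen, so they are described without a test. Mcm6 stood at 3.17 to 3.86 times Mcm4 in pBIC10, at 1.18 to 1.44 times in pBIC and at 1.06 to 1.21 times in YC. Pold1 was at 0.426 to 0.51 of Pold2 in pBIC10 and at 0.192 to 0.305 in pBIC, whereas in YC it was at 1.33 to 1.56 times Pold2. Rpa2 was at 0.802 to 1.15 of Rpa1 in pBIC10, 0.46 to 0.626 in pBIC and 0.371 to 0.441 in YC. The 3 groups did not overlap in the ratios of Pold1 to Pold2 and of Rpa2 to Rpa1. In the ratio of Mcm6 to Mcm4 the pBIC10 libraries lay apart, while pBIC and YC overlapped. Against Mcm2, another subunit of the ring, the order was different. Mcm6 stood at 2.7 to 3.43 times Mcm2 in pBIC10 and 2.39 to 3.4 times in pBIC, which overlapped, and at 1.59 to 1.87 times in YC.

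Cdc7 stood at 3.24 to 4.05 times its activator Dbf4 in pBIC10, at 0.519 to 1.08 in pBIC and at 1.34 to 1.62 in YC. Rrm2 was at 0.921 to 1.12 times Rrm1 in pBIC10 and 0.698 to 1.3 in pBIC, which overlapped, and at 1.87 to 2.53 in YC. Rrm2b reached 0.257 to 0.477 of Rrm2 in pBIC10, against 0.0241 to 0.0959 in pBIC and 0.0401 to 0.0908 in YC. Mcm6 was at 15.5 to 21.8 times the mitosis gene Plk1 in pBIC10, against 1.52 to 2.39 in pBIC and 1.56 to 2.46 in YC. Between the lymphomas Mcm6 had the highest log2 fold change of the 42 replication genes (0.99), and Plk1 the lowest of 24 mitosis genes (-2.11). The medians of these lists were 0.12 and -0.60, so the ratio of this pair does not stand for the lists.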
